A study of Rattus norvegicus with 9 samples.

Results

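Cytochrome c oxidase (COX, complex IV) passes electrons from cytochrome c to oxygen at the end of the mitochondrial respiratory chain. Its catalytic core is encoded in the mitochondrial genome and is surrounded by small nuclear-encoded subunits, several of which exist as a ubiquitous isoform and as an isoform restricted to particular tissues. Cox6a2, Cox7a1 and Cox8b are the isoforms classically assigned to heart and skeletal muscle, with Cox6a1, Cox7a2 and Cox8a as their ubiquitous counterparts. Cox4i1 is the ubiquitous form of subunit 4, and Cox4i2 is a form known from lung and from hypoxic cells. These 8 genes, 4 pairs, were analysed here out of 35843 genes listed with a value for each rat. They were taken by gene name, and all 8 were found. They had been picked with their levels and group differences already seen, and within-pair ratios were part of that choice. Levels, fold changes and ratios of the 8 genes are therefore described and carry no p-value.

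RNA was sequenced from the left ventricle of adult male Sprague-Dawley rats at day 28, with 3 rats per group. Group Sham had surgery without infarction and received saline by gavage. In group MI the left anterior descending coronary artery was tied off for good, and saline was given by gavage. Group MI + DAPA (1st d) had the same ligation and received dapagliflozin (DAPA), an inhibitor of the sodium-glucose cotransporter SGLT2, at 1 mg/kg by daily gavage from the first day. Molecular work in the study drew mainly on the infarct border, and on the corresponding part of the heart in group Sham. For the sequencing, however, the study names normal myocardium in group Sham and infarcted myocardium in both ligated groups. The share of scar in these samples is not given. Each value is an FPKM, a count of fragments divided by gene length and sequencing depth, so it can be set beside that of another gene. Below, the groups are called Sham, MI and DAPA. A library label names a pair of items under 1 number, and what they stand for is not given, so the spread between libraries may be partly technical.

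Between 13597239 and 17210909 reads per rat could be recovered from the FPKM steps. Transcripts of 13 genes of the mitochondrial genome, found by name, took 59.9 to 65.7% of them in Sham, 6.93 to 18.7% in MI and 17.1 to 31.6% in DAPA. All other reads are called reads outside the mitochondrial genome below. Mitochondrial rRNA or tRNA listed under other names would be among them. Dividing by all recovered reads in place of the authors' denominator moved the median log2 fold change of all genes in MI vs. Sham from -0.01 to 0.92. Some directions below depend on that choice, and this is marked for the 8 genes and for the list medians given. Single genes outside the 8 are given with the authors' denominator only, and their directions may depend on it too. A ratio of 2 genes within a rat does not depend on it. MI replicate 2 alone had the lowest FPKM of all 9 rats for 5 of the 8 genes and shared a value of 0 with DAPA replicate 3 for Cox7a1, and values without it are given where they change a call. Cardiomyocyte markers were abundant in all 9 rats, at a summed FPKM of 3101 or more over 14 genes. The tissue was bulk ventricle, in which fewer cells of a type and less RNA per cell cannot be told apart.

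Cox8b showed the widest range of the 8 genes. Subunit 8 is a small nuclear-encoded subunit of complex IV that spans the inner mitochondrial membrane. In Sham, Cox8b FPKM was 1361, 2775 and 2751. It was 276, 90.2 and 448 in MI. In DAPA it was 612, 1060 and 520. Every MI rat lay below every DAPA rat, and every DAPA rat lay below every Sham rat. The group means were 2296 ± 810 in Sham, 272 ± 179 in MI and 731 ± 289 in DAPA (mean and SD of 3 rats). The log2 fold change, on log2(FPKM + 1), was -3.28 (SE 0.59) in MI vs. Sham, 1.63 (SE 0.60) in DAPA vs. MI and -1.65 (SE 0.39) in DAPA vs. Sham. Without MI replicate 2 the MI vs. Sham value was -2.63, and it lay between -3.78 and -2.63 with each rat left out in turn. Among all genes of a rat sorted from the highest FPKM down, Cox8b stood at places 20 to 32 in Sham, 146 to 699 in MI and 69 to 131 in DAPA. The values rest on 508 to 9089 reads per rat.

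Its ubiquitous counterpart Cox8a did not follow it. Cox8a FPKM was 197, 221 and 153 in Sham, 252, 191 and 323 in MI, and 272, 390 and 311 in DAPA. MI overlapped with both other groups, while every DAPA rat was above every Sham rat. The log2 fold change of Cox8a was 0.40 (SE 0.24) in MI vs. Sham and 0.36 (SE 0.25) in DAPA vs. MI. Summed over the pair, FPKM was 2486 ± 805 in Sham, 527 ± 245 in MI and 1055 ± 343 in DAPA (mean and SD of 3 rats). The fall in this sum was carried by Cox8b, as Cox8a had a higher mean in MI than in Sham.

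The sequences just upstream of both subunit 8 genes are shown because the genes differed so far in level in Sham, and because Cox8a did not share the fall of Cox8b in MI. They are the 250 bases before each gene start in RefSeq (rat assembly GRCr8), both on the minus strand, read 5′ to 3′ towards the gene. They cover chr1:205408274-205408523 for Cox8b and chr1:213833624-213833873 for Cox8a. Capitals mark TATAAA in Cox8b and CCGGAA, or its reverse complement, in Cox8a.
Cox8b: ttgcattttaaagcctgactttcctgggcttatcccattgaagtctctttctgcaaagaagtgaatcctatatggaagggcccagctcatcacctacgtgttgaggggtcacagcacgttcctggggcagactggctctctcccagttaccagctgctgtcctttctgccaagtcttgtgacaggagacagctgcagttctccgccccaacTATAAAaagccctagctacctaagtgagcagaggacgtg
Cox8a: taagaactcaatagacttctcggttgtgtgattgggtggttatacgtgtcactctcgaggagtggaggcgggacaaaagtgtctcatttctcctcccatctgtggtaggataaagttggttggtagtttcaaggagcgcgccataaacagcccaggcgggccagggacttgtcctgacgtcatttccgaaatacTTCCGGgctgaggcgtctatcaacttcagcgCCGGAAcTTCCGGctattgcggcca
Cox8b has TATAAA starting 39 bases before the gene start. Cox8a has none of that motif and holds 3 copies of CCGGAA, the core bound by ETS family factors, starting 56, 25 and 18 bases before the gene start. Of all 33469 promoters of this length in the table, 12.9% hold TATAAA and 12.6% hold CCGGAA.

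**Figure D1:**
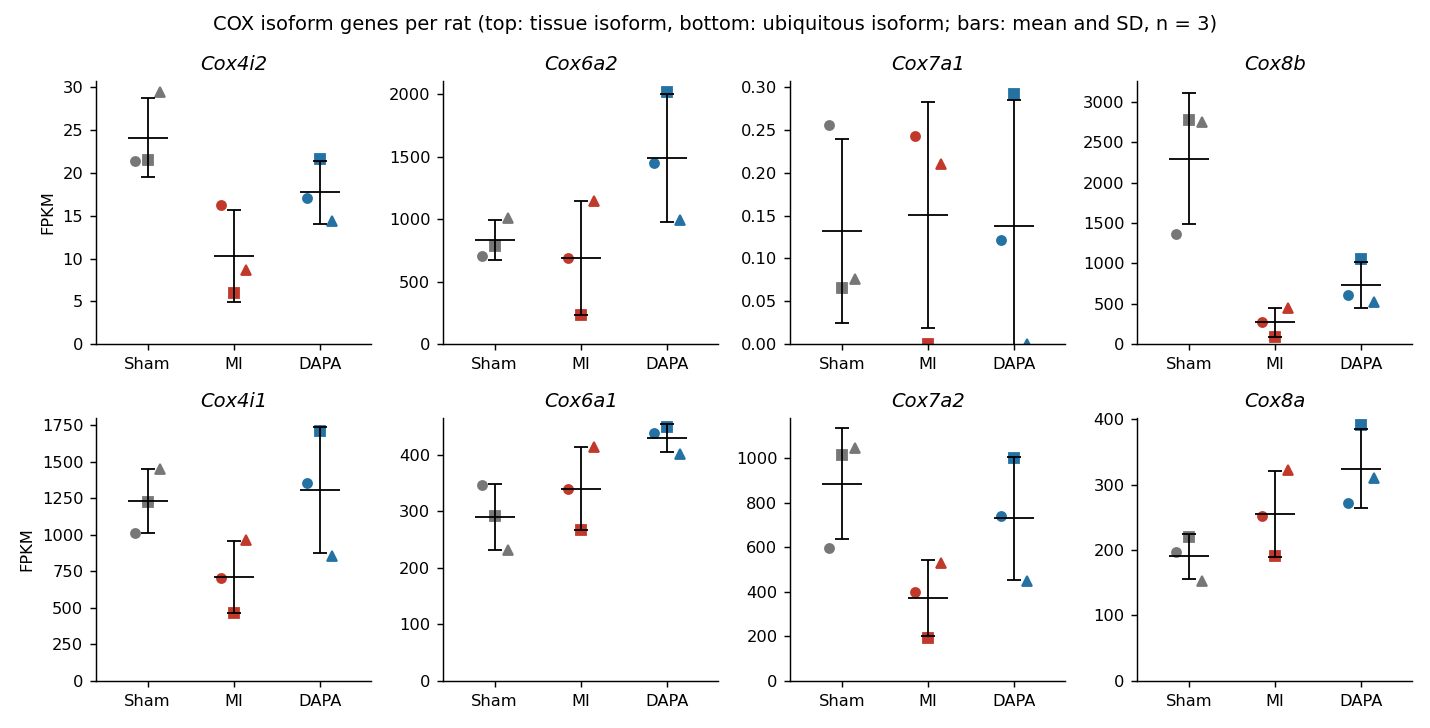
FPKM (vertical axis, linear, own scale per gene) of the 8 isoform genes in the 3 rats of each group (circle, square and triangle for replicates 1, 2 and 3). Tissue isoforms are in the top row and ubiquitous isoforms below, with horizontal lines for the mean and bars for the SD. Cox8b separates all groups, from 1361 to 2775 in Sham, 90.2 to 448 in MI and 520 to 1060 in DAPA, while Cox7a1 is listed at no more than 0.292 in any rat.

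The muscle isoform of subunit 6A behaved otherwise than that of subunit 8. Subunit 6A is known as a regulatory subunit at which ATP and ADP act on the enzyme. Cox6a2 FPKM was 703, 788 and 1012 in Sham, 687, 238 and 1145 in MI, and 1448, 2018 and 997 in DAPA. MI spanned the range of Sham, and the lowest DAPA rat lay below the highest rat of both other groups. The log2 fold change was -0.53 (SE 0.53) in MI vs. Sham, 1.32 (SE 0.59) in DAPA vs. MI and 0.79 (SE 0.31) in DAPA vs. Sham. The MI vs. Sham value had no stable direction. It was 0.11 without MI replicate 2, and 0.59 when all recovered reads were the denominator. The DAPA vs. MI value was 0.69 without MI replicate 2.

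The ubiquitous Cox6a1 was at 347, 292 and 231 FPKM in Sham, 340, 267 and 414 in MI, and 439, 449 and 402 in DAPA. Only the DAPA and Sham rats did not overlap, with DAPA higher. Its log2 fold change was 0.23 (SE 0.23) in MI vs. Sham and 0.58 (SE 0.20) in DAPA vs. Sham. The upstream sequence of Cox6a2 is shown as that of the other muscle isoform with a high FPKM, to be read against that of Cox8b. It covers chr1:192219717-192219966 on the minus strand of GRCr8, and the capitals mark a match to the MEF2 motif.
Cox6a2: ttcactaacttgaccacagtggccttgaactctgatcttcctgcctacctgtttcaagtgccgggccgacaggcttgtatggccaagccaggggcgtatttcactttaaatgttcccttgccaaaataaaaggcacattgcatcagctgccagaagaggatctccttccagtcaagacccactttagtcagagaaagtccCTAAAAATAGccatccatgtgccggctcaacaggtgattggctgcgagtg
The match starts 50 bases before the gene start. MEF2 factors are transcription factors of muscle, and 2.96% of all promoters hold such a match. Neither TATAAA nor CCGGAA lies in this window of Cox6a2, and no MEF2 match lies in that of Cox8b. Cox6a1 had no promoter in the table.

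In subunit 7A the muscle isoform Cox7a1 was listed close to 0 in all 9 rats. Its FPKM was 0.256, 0.0652 and 0.0761 in Sham, 0.243, 0 and 0.210 in MI, and 0.122, 0.292 and 0 in DAPA. These values rest on 4, 1 and 1 reads in Sham, 7, 0 and 6 in MI, and 3, 7 and 0 in DAPA. Several of them are at or under 3 reads, the number taken here as the floor of detection. The row under this name thus goes against its label as a heart isoform. The gene model behind the row could not be checked, so these values may not measure Cox7a1, and no absence of the isoform is read from them. Cox7a1 stayed under the expression filter, and no fold change or isoform ratio is given for it. The other 7 genes passed it in each comparison.

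The ubiquitous form of this subunit, Cox7a2, was abundant. Its FPKM was 599, 1013 and 1046 in Sham, 400, 193 and 530 in MI, and 741, 1003 and 451 in DAPA. Every MI rat was below every Sham rat, and DAPA overlapped with both. The log2 fold change was -1.32 (SE 0.40) in MI vs. Sham, 1.01 (SE 0.45) in DAPA vs. MI and -0.31 (SE 0.36) in DAPA vs. Sham. The MI vs. Sham value was -0.90 without MI replicate 2, which is short of the fold threshold, and -0.21 with all recovered reads as the denominator. The DAPA vs. Sham value turned to 0.58 with that denominator and was 0.0045 without DAPA replicate 3.

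Subunit 4 takes part in the control of the enzyme by ATP, and its isoform exchange is best known from hypoxia. Cox4i1 FPKM was 1013, 1224 and 1449 in Sham, 702, 468 and 963 in MI, and 1351, 1712 and 855 in DAPA. Every MI rat was below every Sham rat, although MI replicate 3 came close to Sham replicate 1. The log2 fold change was -0.83 (SE 0.30) in MI vs. Sham and 0.88 (SE 0.38) in DAPA vs. MI. With all recovered reads as the denominator the MI vs. Sham value turned to 0.28. In DAPA vs. Sham it was 0.05 (SE 0.31) and changed sign when any of 3 single rats was left out, between -0.18 and 0.32 over all rats left out in turn. With all recovered reads as the denominator it was 0.93. The upstream sequence is shown as that of the highest ubiquitous isoform, from chr19:65630133-65630382 on the plus strand of GRCr8, with CCGGAA in capitals.
Cox4i1: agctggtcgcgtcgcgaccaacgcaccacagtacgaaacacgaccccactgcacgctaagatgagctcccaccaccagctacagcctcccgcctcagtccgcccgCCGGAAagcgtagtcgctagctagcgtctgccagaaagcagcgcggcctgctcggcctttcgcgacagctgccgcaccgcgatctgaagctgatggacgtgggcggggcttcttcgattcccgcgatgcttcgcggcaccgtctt
CCGGAA starts 145 bases before the gene start here. The 250 bases of Cox7a2 also hold it, 42 bases before the gene start on the other strand. The 3 ubiquitous isoforms found in the table thus all hold this motif, and the 3 muscle isoforms, Cox6a2, Cox7a1 and Cox8b, hold no match. G and C make up 64.8% of the Cox4i1 sequence, 63.2% of that of Cox7a2 and 52.4% of that of Cox8a, against 51.2% for Cox8b, 49.6% for Cox6a2 and 48.4% for Cox7a1. The median of all promoters was 51.2%. These are matches of letters, and binding was not measured.

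Cox4i2 was at 21.4, 21.5 and 29.5 FPKM in Sham, 16.2, 5.96 and 8.70 in MI, and 17.1, 21.7 and 14.4 in DAPA. Every MI rat was below every Sham rat, and DAPA overlapped with both. The log2 fold change was -1.24 (SE 0.33) in MI vs. Sham, 0.81 (SE 0.34) in DAPA vs. MI and -0.43 (SE 0.21) in DAPA vs. Sham. Without MI replicate 2 the MI vs. Sham value was -0.94, and with all recovered reads as the denominator it was -0.20. In DAPA vs. Sham it turned to 0.41 with that denominator. The isoform named for hypoxia was thus not higher in MI on the deposited scale. Cox4i2 is also known as a pericyte gene. Of 10 smooth muscle and pericyte markers tested in MI vs. Sham, 1 was called lower, Higd1b, and 2 were called higher, Rgs5 and Pdgfrb. Over all genes 10.3% were called lower and 12.1% higher. Higd1b FPKM was 37.1 ± 3.70 in Sham and 15.4 ± 5.97 in MI, and Rgs5 FPKM was 40.1 ± 5.66 and 184 ± 35.4 (mean and SD of 3 rats). The summed FPKM of the 10 markers ranged from 443 to 1515 in Sham, 761 to 1025 in MI and 684 to 1008 in DAPA. The part of these cells in the Cox4i2 values was not tested.

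In the order of mean FPKM levels, Cox8b came first in Sham with 2296 ± 810, followed by Cox4i1, Cox7a2, Cox6a2, Cox6a1, Cox8a, Cox4i2 and Cox7a1. In MI the order was Cox4i1, Cox6a2, Cox7a2, Cox6a1, Cox8b, Cox8a, Cox4i2 and Cox7a1. In DAPA Cox6a2 came first with 1488 ± 512, ahead of Cox4i1, Cox7a2, Cox8b, Cox6a1, Cox8a, Cox4i2 and Cox7a1 (mean and SD of 3 rats). Cox8b thus moved from the first place to the fifth in MI. Across rats the ranges of the top genes overlapped, those of Cox8b and Cox4i1 in Sham and those of Cox4i1 and Cox6a2 in MI and in DAPA. Within rats, Cox8b was above Cox4i1 in every Sham rat, and Cox6a2 was above Cox4i1 in every DAPA rat. In MI the order of Cox4i1 and Cox6a2 differed between rats. Further down, the ranges of Cox7a2 and Cox6a2 overlapped in Sham, those of Cox8b, Cox6a1 and Cox8a in MI, and those of Cox7a2 and Cox8b in DAPA. Cox6a1 was above Cox8a in every rat of all groups, and in Sham and DAPA their ranges did not overlap. Cox4i2 and Cox7a1 lay below all other members in every rat.

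A gene was called at an unadjusted limma p under 0.05 with an absolute log2 fold change over 1, the thresholds stated for the study. In MI vs. Sham, 3 of the 7 isoform genes tested were called lower, Cox4i2, Cox7a2 and Cox8b, where 10.3% of all 13485 genes tested were. None was called higher, where 12.1% of all genes were. In DAPA vs. MI all 7 fold changes were positive and 1 gene, Cox8b, was called higher, where 0.951% of 13251 genes were and 1.11% were called lower. No gene of that comparison passed a Benjamini-Hochberg adjusted p of 0.05 in limma, where 517 genes were lower and 608 higher at an unadjusted p under 0.05. The Cox8b call in it was lost without MI replicate 2, at 0.98, and also without DAPA replicate 1, at 1.73 with a wider error, and without DAPA replicate 2, at 1.33. In DAPA vs. Sham 1 of 7 was called lower, again Cox8b, where 8.16% of 13359 genes were, and 0 were called higher, where 9.54% were. With all recovered reads as the denominator Cox8b was at -2.17 in MI vs. Sham and at -0.76, no longer called, in DAPA vs. Sham. Cox6a1 and Cox8a were called higher in MI vs. Sham with it, at 1.33 and 1.51, and Cox6a1, Cox6a2 and Cox8a in DAPA vs. Sham at 1.47, 1.68 and 1.65. Calls were also gained with single rats left out. Without MI replicate 3, Cox4i1 was called lower in MI vs. Sham at -1.08, and Cox4i1, Cox6a2 and Cox7a2 were called higher in DAPA vs. MI at 1.13, 1.82 and 1.32. Without DAPA replicate 3, Cox4i1 and Cox7a2 were called higher in DAPA vs. MI at 1.16 and 1.32, and Cox6a2 in DAPA vs. Sham at 1.05. Cox4i2 was called higher in DAPA vs. MI without MI replicate 1, at 1.17. Groups did not overlap for 4 genes lower in MI vs. Sham, against 27.5% of all genes lower and 27.1% higher. They did not for 1 gene higher in DAPA vs. MI, against 6.63% of all genes higher and 7.16% lower. Against Sham, 1 gene was lower and 2 were higher in DAPA without overlap, where 23.3% and 23.2% of all genes were. Both comparisons with MI share its 3 rats, and both with Sham share those of Sham. Because the genes were chosen on these contrasts, nothing is read from the counts.

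Within a rat, the ratio of the tissue isoform to the ubiquitous isoform is free of the library denominator. The linear ratio of Cox8b to Cox8a was 6.90, 12.6 and 17.9 in Sham. It was 1.10, 0.472 and 1.39 in MI and 2.25, 2.71 and 1.67 in DAPA. No groups overlapped. Cox8b made up 91.6% ± 3.80 of the pair's FPKM in Sham, 47.5% ± 13.7 in MI and 68.3% ± 5.29 in DAPA (mean and SD of 3 rats). The mean log2 ratio was 3.53 ± 0.70, -0.16 ± 0.82 and 1.12 ± 0.35 in that order. It differed by -3.69 (SE 0.62) between MI and Sham, by 1.28 (SE 0.51) between DAPA and MI, and by -2.42 (SE 0.45) between DAPA and Sham. Left-out rats moved these to between -4.07 and -3.23, 0.81 and 1.59, and -2.79 and -2.10. The DAPA rats lay between the other groups and nearer to MI on the log2 scale.

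**Figure D2:**
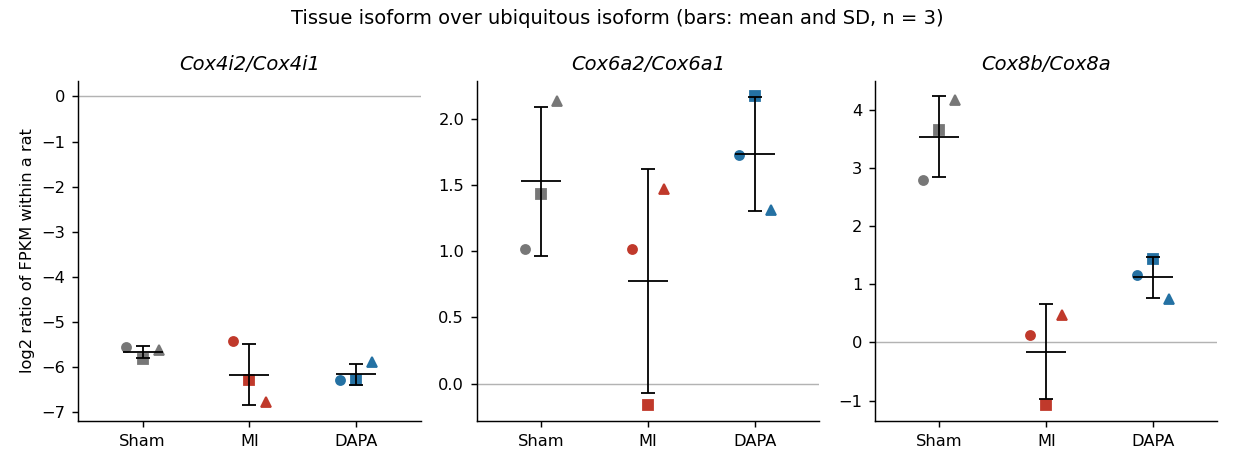
Log2 ratio of the FPKM of the tissue isoform to that of the ubiquitous isoform in the same rat (vertical axis), for the 3 pairs in which both genes passed the filter. Points are rats (circle, square and triangle for replicates 1, 2 and 3), lines are means and bars the SD; only Cox8b/Cox8a separates all 3 groups, at means of 3.53, -0.16 and 1.12.

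The linear ratio of Cox6a2 to Cox6a1 was 3.03 ± 1.21 in Sham, 1.89 ± 0.945 in MI and 3.42 ± 1.01 in DAPA (mean and SD of 3 rats), and all groups overlapped. The difference of the mean log2 ratio was -0.75 (SE 0.59) between MI and Sham and 0.96 (SE 0.55) between DAPA and MI. MI replicate 2 was the only rat with less Cox6a2 than Cox6a1, at a log2 ratio of -0.17. Cox4i2 made up 1.93% ± 0.179 of its pair in Sham, 1.47% ± 0.708 in MI and 1.38% ± 0.232 in DAPA (mean and SD of 3 rats). Sham and DAPA did not overlap, and MI spanned both. Its log2 ratio differed by -0.50 (SE 0.40) between MI and Sham. Among the 3 pairs with a ratio, subunit 8 was the only pair in which all groups were separate.

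The muscle isoforms Cox8b and Cox6a2 could also be set against each other. The FPKM of Cox8b over that of Cox6a2 was 2.73 ± 0.793 in Sham, 0.391 ± 0.0115 in MI and 0.490 ± 0.0582 in DAPA (mean and SD of 3 rats), with no overlap between groups. The 3 MI rats, which differed widely in the level of both genes, lay between 0.379 and 0.402. In log2 units the ratio differed by -2.76 (SE 0.25) between MI and Sham and by 0.32 (SE 0.11) between DAPA and MI. Against the mean log2(FPKM + 1) of 14 cardiomyocyte markers of the same rat, Cox6a2 lay 1.45 ± 0.10 higher in Sham, 1.36 ± 0.15 in MI and 1.43 ± 0.05 in DAPA. All groups overlapped and each SD was small, so Cox6a2 kept close to these markers from rat to rat. Cox8b lay 2.85 ± 0.35 above the markers in Sham, 0.01 ± 0.19 in MI and 0.39 ± 0.23 in DAPA (mean and SD of 3 rats). Both infarct groups were below Sham without overlap, and they overlapped with each other.

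Relative to the same markers, Cox7a2 lay 1.51 ± 0.21 higher in Sham, 0.63 ± 0.38 in MI and 0.39 ± 0.10 in DAPA (mean and SD of 3 rats). Neither infarct group overlapped with Sham. Cox4i1 lay 2.01 ± 0.04, 1.61 ± 0.58 and 1.24 ± 0.04 higher in the same order, with MI spanning both other groups. The marker mean itself was 0.81 (SE 0.32) higher in DAPA than in Sham, without overlap. A lower place against it in DAPA therefore does not by itself show a lower FPKM than in Sham. The log2 fold change in DAPA vs. Sham was -0.31 for Cox7a2 and 0.05 for Cox4i1, against -1.65 for Cox8b. Cox8a and Cox6a1 showed overlapping groups against these markers. The higher FPKM of most isoform genes in DAPA vs. MI thus went with higher cardiomyocyte markers, and the part of the markers in it was not tested.

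**Figure D3:**
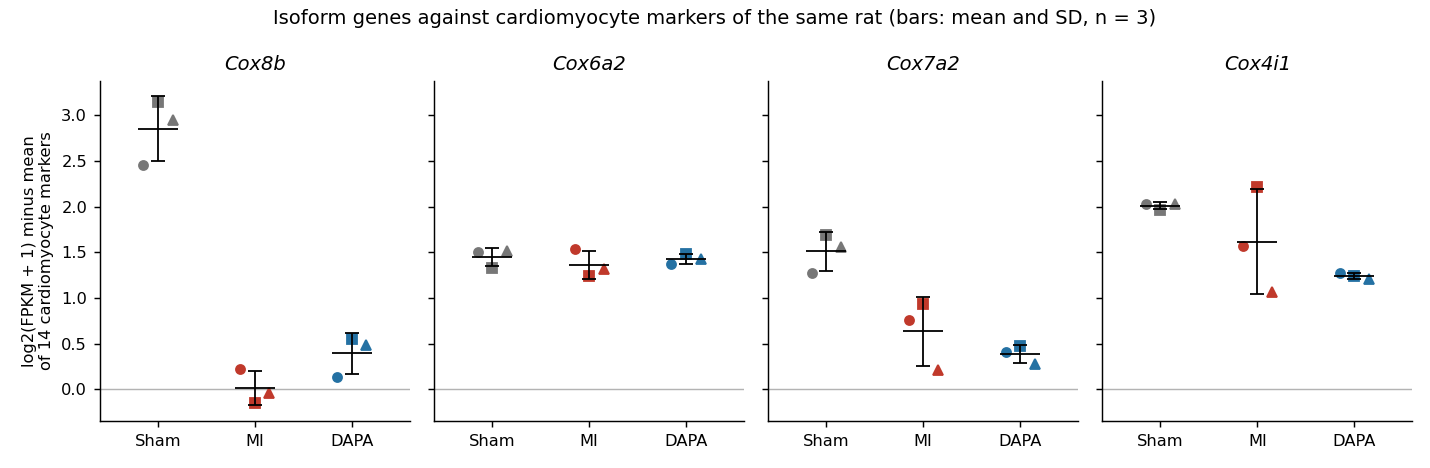
Log2(FPKM + 1) of 4 isoform genes minus the mean of 14 cardiomyocyte markers in the same rat (vertical axis, shared). Points are rats (circle, square and triangle for replicates 1, 2 and 3), lines are means and bars the SD; Cox6a2 keeps to 1.45, 1.36 and 1.43 in the 3 groups while Cox8b drops from 2.85 to 0.01 and 0.39.

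The cardiomyocyte markers themselves were split in MI vs. Sham: of 14 tested, 3 were called lower and 1 higher, against 10.3% and 12.1% of all genes. The median log2 fold change of the 14 was -0.27 against -0.01 over all genes. Myh6 and Tnni3, the fast myosin heavy chain and cardiac troponin I, were lower at -2.43 (SE 0.52, adjusted p = 0.0113) and -2.32 (SE 0.55, adjusted p = 0.0157) by limma with Benjamini-Hochberg adjustment. Mybpc3 was at -1.62 (SE 0.58, adjusted p = 0.0632), called on the unadjusted p alone. Myh7, the slow myosin heavy chain, was higher at 1.68 (SE 0.53, adjusted p = 0.0412). With all recovered reads as the denominator the median of the list turned to 0.81, below the median of 0.92 over all genes. In DAPA vs. MI all 14 were positive, from 0.60 to 1.59, and 2 were called higher, where 0.951% of all genes were. In DAPA vs. Sham 6 were called higher and 1 lower, where 9.54% and 8.16% of all genes were, and the median of the list was 0.87. The summed FPKM of the list ranged from 9495 to 13579 in Sham, 3101 to 15989 in MI and 12592 to 26459 in DAPA.

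Markers of other cells moved in these comparisons too. All 8 fibroblast markers and all 8 macrophage markers were called higher in MI vs. Sham, with median log2 fold changes of 3.20 and 2.62. Over all genes 12.1% were called higher. Summed fibroblast markers ranged from 509 to 818 FPKM in Sham, 3991 to 7828 in MI and 2452 to 4416 in DAPA. Summed macrophage markers ranged from 123 to 435, 1706 to 3106 and 949 to 1698 in that order. Neither list was at or near 0 in Sham. All 5 endothelial markers tested were called lower in MI vs. Sham, where 10.3% of all genes were. Their summed FPKM was 915 to 1076 in Sham, 223 to 306 in MI and 293 to 335 in DAPA. Of 3 lymphocyte markers tested, 2 were called higher in MI vs. Sham and 2 lower in DAPA vs. MI. Over all genes these shares were 12.1% and 1.11%. The sum of the lymphocyte markers ran from 29.3 to 2957 in MI, mostly through Jchain, an immunoglobulin joining chain. It did not pass 14.2 in the other groups. The part of these cells in the levels of the isoform genes was not tested.

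Cox8b and Cox6a2 are also known from skeletal muscle, and Cox8b and Cox7a1 from brown fat. Of 7 skeletal muscle markers 5 were found, and they summed to between 16.9 and 31.2 FPKM in all 9 rats. Only 3, 2 and 3 of them were tested in MI vs. Sham, DAPA vs. MI and DAPA vs. Sham, and 0 were called. Over all genes the shares called lower and higher were 10.3% and 12.1%, 1.11% and 0.951%, and 8.16% and 9.54% in that order. With so few genes tested, nothing is read from the lack of calls. Among 6 adipocyte and brown fat markers only Cidea passed the filter, with 19.2 ± 3.00 FPKM in Sham, 27.2 ± 15.9 in MI and 45.3 ± 17.6 in DAPA (mean and SD of 3 rats). Cidea was called higher in DAPA vs. Sham at 1.15 (SE 0.27, adjusted p = 0.0187) by limma with Benjamini-Hochberg adjustment, without overlap. The sum of the 6 ranged from 16.9 to 22.5 in Sham, 10.1 to 40.9 in MI and 40.3 to 70.2 in DAPA. The part of skeletal muscle or fat cells in the levels of the isoform genes was not tested.

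The other subunits of complex IV give the setting of these genes. Of 9 other nuclear subunits tested in MI vs. Sham, 2 were called lower and 1 higher, against 10.3% and 12.1% of all genes. The median log2 fold change of the 9 was -0.61. Cox7c was lower at -1.17 (SE 0.32, adjusted p = 0.0255) and Cox5b at -1.14 (SE 0.39, adjusted p = 0.0542), the latter on the unadjusted p alone, by limma with Benjamini-Hochberg adjustment. Cox6b2, an isoform of subunit 6B known from testis, was higher at 2.29 (SE 0.36, adjusted p = 0.00384), from 1.53 ± 1.40 FPKM in Sham to 10.4 ± 1.48 in MI (mean and SD of 3 rats). With all recovered reads as the denominator the median of the list turned to 0.50, below the median of 0.92 over all genes. In DAPA vs. MI 5 of 9 were called higher and none lower, against 0.951% and 1.11% of all genes. The median of the 9 was 1.02. Each of the 5 called had an adjusted p = 0.558 by limma with Benjamini-Hochberg adjustment, so 0 hold after adjustment. Cox8c, a further isoform of subunit 8, was at 0 in all 9 rats.

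Set against the mean log2(FPKM + 1) of these 9 subunits, Cox8b lay 3.36 ± 0.38 higher in Sham, 0.36 ± 0.71 in MI and 1.28 ± 0.22 in DAPA, with no overlap. Cox4i1 lay 2.52 ± 0.04, 1.96 ± 0.04 and 2.13 ± 0.11 higher, also with no overlap and with a small spread. Cox7a2 lay 2.02 ± 0.25, 0.98 ± 0.30 and 1.28 ± 0.18 higher (mean and SD of 3 rats), and both infarct groups were below Sham. Cox4i2 was lower against them in both infarct groups than in Sham, without overlap. For Cox8b, the difference between MI and Sham was -3.01 (SE 0.47) on this scale, against -0.56 (SE 0.03) for Cox4i1 and -1.05 (SE 0.22) for Cox7a2. Cox8b thus lay further below its Sham level than the mean of these 9 subunits did. The 9 count equally in this mean and include Cox6b2, a gene of low FPKM. Cox6b2 was at 2.29 in MI vs. Sham and at -0.59 in DAPA vs. MI. It pulls the mean up in MI, so smaller differences such as those of Cox4i1 may rest partly on it. A mean without Cox6b2 was not taken.

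**Figure D4:**
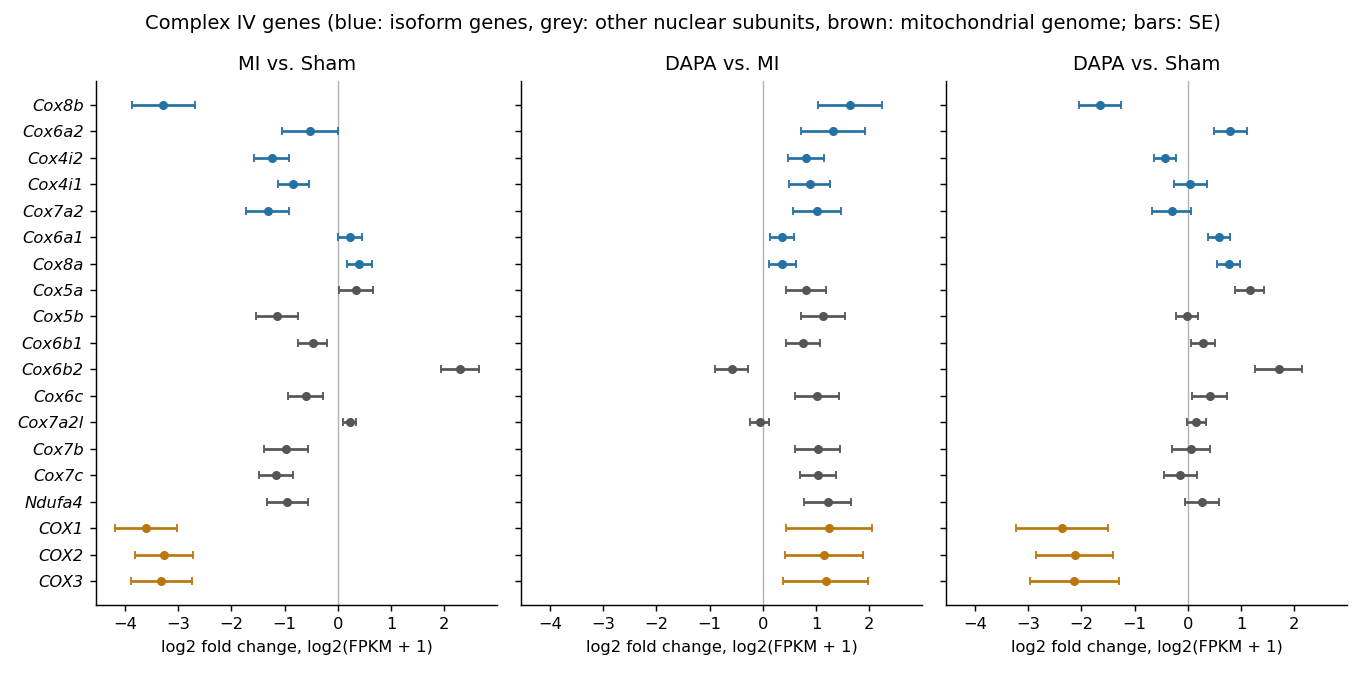
Log2 fold change on log2(FPKM + 1) (horizontal axis, shared) of 7 isoform genes (blue), 9 other nuclear subunits (grey) and 3 subunits of the mitochondrial genome (brown) in the 3 comparisons, with bars for the SE of limma. Cox8b, at -3.28 in MI vs. Sham, lies beside the mitochondrial genome subunits and apart from the other nuclear subunits.

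COX1, COX2 and COX3, the core subunits encoded in the mitochondrial genome, were all called lower in MI vs. Sham. Over all genes 10.3% were called lower. COX1 was at -3.61 (SE 0.59, adjusted p = 0.00428), COX2 at -3.27 (SE 0.54, adjusted p = 0.00457) and COX3 at -3.31 (SE 0.57, adjusted p = 0.00524) by limma with Benjamini-Hochberg adjustment. Their direction held with all recovered reads as the denominator, at a median of -2.20. In DAPA vs. MI they were at 1.14 to 1.25, and none was called. All 3 were called lower in DAPA vs. Sham, and 0 passed adjustment there, where 7.49% of all genes were lower with an adjusted p. Libraries were poly-A selected, so these values depend on how the tails of mitochondrial transcripts were captured.

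Of 21 factors of complex IV assembly tested in MI vs. Sham, 2 were called lower and none higher, against 10.3% and 12.1% of all genes, and the median log2 fold change was -0.14. The share called lower was thus near that of all genes. With all recovered reads as the denominator the median of the factors turned to 0.54. Cox17, which carries copper to the complex, was at 279 ± 6.05 FPKM in Sham, 61.4 ± 26.3 in MI and 128 ± 30.9 in DAPA (mean and SD of 3 rats). It fell by 2.25 on the log2 scale in MI vs. Sham (SE 0.29, adjusted p = 0.00204), and was at 1.10 (SE 0.33, adjusted p = 0.558) in DAPA vs. MI by limma with Benjamini-Hochberg adjustment. Cmc1, a factor of early COX1 assembly, fell by 1.03 (SE 0.29, adjusted p = 0.0304). Cox20 at -0.83 and Higd1a at -0.87 did not reach the fold threshold. All these values of single factors are on the deposited scale. Sco2, Surf1 and Pet117 were not found under these names and were not analysed.

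Regulators known for isoforms of complex IV were examined next. Of 10 tested in MI vs. Sham, 2 were called higher and none lower, against 12.1% and 10.3% of all genes. The median log2 fold change of the 10 was 0.12, and 1.14 with all recovered reads as the denominator. Values of single regulators are on the deposited scale. Rbpj, a factor that acts on the Cox4i2 promoter, was at 1.43 (SE 0.21, adjusted p = 0.00291), and Hif1a, the hypoxia-inducible factor, at 1.09 (SE 0.29, adjusted p = 0.0227) by limma with Benjamini-Hochberg adjustment. Epas1, the related factor HIF-2 alpha, was at -0.96 (SE 0.23, adjusted p = 0.0177), just short of the fold threshold. Mef2c, a MEF2 factor, was at -0.55 (SE 0.14, adjusted p = 0.0184). None of the 10 was called in DAPA vs. MI, where no gene passed adjustment. These are levels of RNA, and the activity of the factors was not measured.

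Across 62 subunits of the other respiratory complexes and cytochrome c, 25 were called lower in MI vs. Sham, also with an adjusted p, and none higher. Over all genes 9.93% were called lower with an adjusted p. Their median log2 fold change was -0.82, which turned to 0.29 with all recovered reads as the denominator. The median over all genes was then 0.92. The largest falls were those of Atp5me at -2.10 (SE 0.41, adjusted p = 0.00806), Ndufa5 at -2.07 (SE 0.34, adjusted p = 0.00449), Ndufb7 at -1.95 (SE 0.36, adjusted p = 0.00670) and Ndufc1 at -1.89 (SE 0.26, adjusted p = 0.00248) by limma with Benjamini-Hochberg adjustment. Cox8b at -3.28 lay beyond the range of these 62, from -2.10 to 0.63. In DAPA vs. MI all 62 were positive, with a median of 0.93, and 18 were called higher, where 0.951% of all genes were. None was called after adjustment. The isoform genes are short. Only 3.52% of the genes tested were shorter than Cox8b by the lengths read from the FPKM steps, and the shortest 10% of genes had a median of -0.16 in MI vs. Sham against -0.01 for all genes with a length.

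Other metabolic enzymes with a muscle and a general isoform were compared in the same way, without a test. The log2 ratio of Pgam2 to Pgam1, forms of phosphoglycerate mutase, was 2.41 ± 0.46 in Sham, -1.25 ± 0.69 in MI and 0.30 ± 0.45 in DAPA (mean and SD of 3 rats), with no overlap between groups. Slc2a4 to Slc2a1, the glucose transporters GLUT4 and GLUT1, went from 4.58 ± 0.63 to 1.18 ± 0.71 and 2.36 ± 0.87, again without overlap. Both pairs thus had the pattern of Cox8b/Cox8a, at a difference between MI and Sham of -3.66 (SE 0.48) and -3.40 (SE 0.55) against its -3.69. In both, the general isoform rose in MI vs. Sham, with Pgam1 at 1.10 (SE 0.15, adjusted p = 0.00260) and Slc2a1 at 1.42 (SE 0.23, adjusted p = 0.00407) by limma with Benjamini-Hochberg adjustment.

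The ratio was also lower in every MI rat than in every Sham rat for Slc25a4/Slc25a5, the adenine nucleotide carriers, from 3.90 ± 0.34 to 2.10 ± 0.56, and for Cpt1b/Cpt1a, the carnitine palmitoyltransferases, from 1.83 ± 0.19 to 0.30 ± 0.85. Eno3/Eno1 (enolase), Pygm/Pygb (glycogen phosphorylase) and Pfkm/Pfkl (phosphofructokinase) did likewise, at differences of -2.21 (SE 0.75), -1.44 (SE 0.69) and -1.06 (SE 0.37). Ckm/Ckb, the cytosolic creatine kinases, overlapped in all groups, at -0.26 ± 0.78 in Sham and -0.66 ± 1.06 in MI (mean and SD of 3 rats), as did Cox6a2/Cox6a1. Ckmt1 was at 0 in some rats, so no ratio to Ckmt2 was taken. In DAPA rats the ratios of Slc25a4/Slc25a5 and Cpt1b/Cpt1a were above those of all MI rats and overlapped with Sham, at 3.19 ± 0.38 and 1.55 ± 0.40, whereas Cox8b/Cox8a, Pgam2/Pgam1 and Slc2a4/Slc2a1 stayed below every Sham rat.

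Genes with the most similar FPKM pattern over the 9 rats were taken by Pearson's r among 14157 genes, as a description. The 9 points share 3 groups and their libraries, so genes that differ between groups correlate. Cox8b was nearest to Atp5me (r = 0.996), Ndufa5 (r = 0.991) and Slc4a3 (r = 0.990), an ATP synthase subunit, a complex I subunit and an anion exchanger. Cox6a2 was nearest to Pln (r = 0.990), phospholamban of the sarcoplasmic reticulum, and then to Tesc (r = 0.986). Cox4i1 was nearest to Uqcrc1 (r = 0.995), Ndufs3 (r = 0.995) and Mrps16 (r = 0.991), and Cox7a2 to Etfb (r = 0.993), Ndufa7 (r = 0.990) and Adssl1 (r = 0.988).

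The ubiquitous isoforms Cox6a1 and Cox8a had other neighbours. Cox6a1 was nearest to Setd3 (r = 0.989), Ptgds (r = 0.973) and Nkx2-5 (r = 0.963), and Cox8a to Cacna2d2 (r = 0.955), Arvcf (r = 0.953) and Panx2 (r = 0.951), several of them of low FPKM. Cox4i2 was nearest to Rbms2 (r = 0.963), an unnamed locus, and Epas1 (r = 0.952). Between members, r was 0.965 for Cox4i1 and Cox7a2, 0.924 for Cox7a2 and Cox8b, and 0.906 for Cox6a1 and Cox8a. Within the pairs it was -0.18 for Cox8a and Cox8b, 0.63 for Cox6a1 and Cox6a2 and 0.78 for Cox4i1 and Cox4i2. The pairs of different subunits named here, those with the highest r, were thus closer in pattern than the isoforms of subunit 8 were to each other. Some other pairs of different subunits were nearly as unlike, at -0.16 for Cox4i2 and Cox8a and -0.14 for Cox6a1 and Cox8b.

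Beyond the motifs shown above, both strands of the 250 upstream bases of the 6 genes found in RefSeq were searched for the SRF CArG box, the ERR element AAGGTCA and the NRF1 motif. Of the 33469 promoters, 501 hold the first, 3.99% the second and 3.75% the third. None of the 6 held a match. CANNTG, the E-box, was present in all 6, with 4 matches in Cox6a2, 3 in Cox7a2, 2 in Cox8b and 1 in each of the others, and 65.5% of all promoters hold it. No matches of different motifs overlapped. Absence of a match says only that these letters are not in this window.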

How the data were processed

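RNA of the left ventricle was sequenced from 3 rats per group; the group MI + DAPA (1st d) is called DAPA. Libraries were poly-A selected with the NEBNext Ultra kit. The submitters' processing notes name HISAT2 2.0.5, StringTie 1.3.3b, featureCounts 1.5.0-p3 and DESeq2; the genome build is not given in the sources used here. The authors deposited FPKM values, already divided by gene length and library size, for 35843 genes. Columns were matched to rats by name, and 0 columns were not used.

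Because FPKM are not counts, limma 3.58.1 in R 4.3.3 (empirical Bayes with trend) was run on log2(FPKM + 1) with the rats of 2 groups per fit, for genes with FPKM of at least 1 in at least 3 rats of the fit. This scale understates changes of low genes. Genes were called where the unadjusted p was under 0.05 and the log2 fold change passed 1 in either direction, with Benjamini-Hochberg adjustment over all genes tested beside it. Reads were recovered as whole multiples of the FPKM step for 18896 genes, those seen in 4 or more libraries; floors of 3 reads cover counting error only. Both steps were tested on simulated data. Isoform ratios were taken within a rat without pseudocount. Promoters came from RefSeq (GRCr8), where 6 of 8 genes matched. Other steps used pandas 2.3.3, numpy 2.4.6 and matplotlib 3.10.9 in Python 3.11.15.

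The isoform genes, the other gene lists and the tests were chosen with earlier results of these data known. Named genes are the 8 isoform genes, the isoform pairs, for each list up to 4 genes with the largest change in MI vs. Sham, and the 3 genes nearest in pattern to each isoform gene; Cox8c was named after its values were seen. A gene that this rule picked for Cox6a2 is not reported here. Alternatives were a pseudocount of 0.1, no filter, all 9 rats in 1 fit, a replicate block, other denominators, other call rules and each rat left out in turn.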

Additional observations from a re-analysis of the deposited data

How the results depend on the processing

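Under the alternatives of the processing, calls of the isoform genes kept their direction and side of the threshold in 218 of 252 cases, lost a call in 9, gained a call in 15 and turned sign in 10. With all 9 rats in 1 fit, Cox6a2 and Cox7a2 were called higher in DAPA vs. MI at 1.32 and 1.01. Isoform ratios moved by less than the spread between rats in all 72 cases. With rats left out in turn, no other outcome was possible. Leaving a rat out of so small a group moves the group mean by less than that spread. Nothing is therefore read from the count of 72. The sign turned for Cox4i1 and Cox6a2 in MI vs. Sham with all recovered reads as the denominator, at 0.28 and 0.59, and for Cox4i2 and Cox7a2 in DAPA vs. Sham, at 0.41 and 0.58. Cox4i1 in that comparison was at -0.037 with reads outside the mitochondrial genome as the denominator. With rats left out in turn, Cox6a2 in MI vs. Sham ranged from -1.03 to 0.11, and in DAPA vs. Sham Cox4i1 ranged from -0.18 to 0.32 and Cox7a2 from -0.57 to 0.0045. The Cox4i2/Cox4i1 log2 ratio of DAPA vs. MI, 0.01, ranged from -0.30 to 0.37. Causes were not tested.

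With all recovered reads as the denominator, genes called lower and higher were 290 and 6099 in MI vs. Sham, 296 and 63 in DAPA vs. MI, and 233 and 4433 in DAPA vs. Sham. The median log2 fold change of all genes tested was then 0.92, -0.21 and 0.74. Without a fold threshold they were 3295 and 3310, 517 and 608, and 2719 and 2815. In DAPA vs. MI, the adjusted p left 0 and 0, a pseudocount of 0.1 gave 224 lower, and rats left out in turn gave 73 to 238 lower and 38 to 408 higher; the lowest of both came without MI replicate 2 and the highest number higher without MI replicate 3. With rats left out, MI vs. Sham gave 1111 to 1551 lower and 1303 to 1753 higher, and DAPA vs. Sham 900 to 1225 lower and 1057 to 1400 higher.

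Rats of the same number shared only a number: deviations from group means correlated between -0.30 and 0.19 over the 3 comparisons, and not every pair was above 0.1 in any of them. With the replicate block, DAPA vs. MI gave 146 lower and 71 higher, and the Cox8b call was lost with its fold change at 1.63. Group Sham had the fewest reads outside the mitochondrial genome, from 5899666 to 6858645 per rat against 11519732 or more in the infarct groups, which limits low genes most there.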
